A study of Mus musculus with 2 samples.

Results

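The transcription regulators that mark T cell states, Tcf7, Lef1, Klf2, Bach2, Satb1, Tox, Tbx21, Eomes, Id2 and Id3, were followed through the lymphocytes of mouse pancreatic tumours. They were chosen by name and are 10 of the 32285 genes in the files, and all 10 had transcripts in both libraries. The tumours grew from KPC cells placed in the pancreas, were harvested on day 21, and were dissociated and read as 3′ single-cell RNA libraries. The control library pooled 5 Porcnfl/fl littermates, and the knockout library pooled 5 Csf1r-Cre;Porcnfl/fl mice. Porcn encodes the acyltransferase that Wnt proteins need for secretion, both genotypes carry the floxed allele, and Csf1r-Cre is driven by a promoter of macrophages. Whether the allele is also deleted in other blood cells, T cells included, was not measured. Each genotype is therefore 1 library, mice cannot be separated within it, and no comparison between genotypes has a replicate or a p-value.

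Porcn stood at 3.28 CPM (counts per 1000000 UMIs, the unique molecules counted) in control monocyte/macrophage-like cells and at 1.43 CPM in knockout ones, from 8 and 4 UMIs, too few for a check of the genotype, and 3′ reads can also count transcripts of a recombined allele. In all T-like cells Porcn had 0 control UMIs and 2 knockout UMIs. After filtering, 11516 control and 10467 knockout cells were kept, with medians of 12167.5 and 10109 UMIs. The libraries shared 46 barcodes, none of which was a T, NK or B-like cell in both libraries.

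TCF-1 and LEF-1, the products of Tcf7 and Lef1, are HMG-box factors that act at the end of the canonical Wnt pathway with beta-catenin and that also build T cell identity without it. They are high in naive and memory T cells and in the stem-like cells that sustain responses to tumours and chronic infection. KLF2 drives the genes of lymph node homing and tissue exit, BACH2 represses effector genes and is central to B cells, and SATB1 organizes chromatin in T cells. TOX installs the exhausted state under lasting antigen, T-bet (Tbx21) and Eomesodermin (Eomes) direct cytotoxic and memory programs in CD8 T and NK cells, and ID2 and ID3 bind E proteins and keep them off DNA, ID2 in effector cells and ID3 in memory and stem-like ones.

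Cells of T-like clusters were divided by raw UMIs into Foxp3 T cells (Foxp3 present, no Cd8a or Cd8b1), CD8 T cells (Cd8a or Cd8b1, no Cd4 or Foxp3) with or without a Pdcd1 UMI, CD4 T cells (Cd4, no Cd8a, Cd8b1 or Foxp3), and other T cells. Pdcd1 encodes the checkpoint receptor PD-1. A cell without a Pdcd1 UMI can still carry the transcript, since UMI counts per cell are small. The CD8 T cells with Pdcd1 numbered 68 in control and 382 in knockout, those without it 46 and 317, CD4 T cells 22 and 313, Foxp3 T cells 7 and 184, and other T cells 47 and 422. NK-like cells numbered 38 and 243, and B-like cells 8 and 450. The 14 T cell markers summed to 8349 CPM in control and 8596 CPM in knockout CD8 T cells with Pdcd1, and to 6936 and 7370 CPM in those without. The 8 NK markers summed to 3110 and 2634 CPM in NK-like cells, where T cell markers were at 1204 CPM in control and 1965 CPM in knockout. Intervals given in parentheses are 95% and cover counting error only, not the variation between mice. In comparisons a gene was compared where its mean CPM of both pools was at least 50. A ratio past 2-fold in either direction was counted. A gene under 50 CPM in its lower pool could enter only through its level in the other pool, which favours a large ratio. The rule was the same for all genes, but their shares were not matched to the members' levels. Counts of members set beside those shares are therefore descriptions and not tests.

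The genes do not share a neighbourhood. On GRCm38 with GENCODE annotation, Tcf7 (ENSMUSG00000000782) lies on chromosome 11 from 52252371 to 52283014, Lef1 (ENSMUSG00000027985) on chromosome 3 from 131110471 to 131224356, and Klf2 (ENSMUSG00000055148) on chromosome 8 from 72319033 to 72321656. Bach2 (ENSMUSG00000040270) spans 32238804 to 32586108, Tox (ENSMUSG00000041272) spans 6686353 to 6991557 and Id3 (ENSMUSG00000007872) spans 136143497 to 136145755, all 3 on chromosome 4. Satb1 (ENSMUSG00000023927) is on chromosome 17 from 51736187 to 51833290, Eomes (ENSMUSG00000032446) on chromosome 9 from 118478212 to 118486132, and Id2 (ENSMUSG00000020644) on chromosome 12 from 25093799 to 25097140. Tbx21 (ENSMUSG00000001444) shares chromosome 11 with Tcf7, from 97098071 to 97115331. Tcf7, Lef1, Bach2, Tox and Eomes overlap annotated noncoding genes, and Bach2 overlaps Bach2it1 on its own strand, so reads there may be divided between them.

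In the knockout library Tcf7, Lef1 and Klf2 were each lower in CD8 T cells with Pdcd1 than in those without it. The 250 bases before a start site of each are shown for that reason (RefSeq, GRCm38.p6, 5′ to 3′, and for Tcf7 the downstream of its 2 listed starts).
Tcf7, chr11:52282596-52282845, minus strand: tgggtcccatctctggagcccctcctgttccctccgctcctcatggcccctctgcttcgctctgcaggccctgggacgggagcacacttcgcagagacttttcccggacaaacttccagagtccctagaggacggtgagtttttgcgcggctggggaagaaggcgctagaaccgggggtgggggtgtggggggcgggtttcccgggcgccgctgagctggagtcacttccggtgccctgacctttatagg
Lef1, chr3:131110047-131110296, plus strand: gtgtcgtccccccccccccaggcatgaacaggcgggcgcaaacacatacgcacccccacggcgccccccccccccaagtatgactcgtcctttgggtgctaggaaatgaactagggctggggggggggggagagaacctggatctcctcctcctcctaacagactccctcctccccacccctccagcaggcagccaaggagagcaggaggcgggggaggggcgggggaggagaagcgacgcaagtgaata
Klf2, chr8:72318812-72319061, plus strand: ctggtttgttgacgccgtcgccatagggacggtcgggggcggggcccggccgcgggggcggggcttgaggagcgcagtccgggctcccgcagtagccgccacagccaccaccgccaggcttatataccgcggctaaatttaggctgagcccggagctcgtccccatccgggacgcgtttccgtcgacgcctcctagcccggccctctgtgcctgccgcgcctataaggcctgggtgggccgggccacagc
These stretches are printed in lower case, and none of the motifs searched falls within them. Over the 300-base windows that run on 50 bases past each start, 5 motifs were searched on both strands in the 17 windows of the 9 genes with an entry. The FOXO motif GTAAACA was in 1 of 17 windows (5.88%), in the 50 bases after that Tcf7 start, beside 3.65% of all 32851 promoters. The E2 box that E proteins bind, CAGCTG or CAGGTG, was in 8 windows of 5 genes (47.1%), beside 32.9% of all promoters. It overlaps none of the other motifs' matches in these windows. The TCF/LEF motif CTTTGAA or CTTTGAT (8.65% of all promoters), the AP-1 and MARE core TGACTCA (5.2%) and the T-box motif AGGTGTGA (1.28%) were in 0 of the 17. A match describes the letters of the window only.

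In CD8 T cells without Pdcd1, Tcf7, Lef1 and Klf2 were each higher in the knockout library. The other members compared, Bach2, Satb1, Tox, Tbx21, Eomes and Id2, were within 2-fold of control. Tcf7 stood at 67.7 CPM in control (31.0 to 129; 9 UMIs in 5 of 46 cells) and at 151.3 CPM in knockout (130 to 175; 179 UMIs in 77 of 317 cells), a ratio of 2.24 (1.15 to 4.97). Lef1 was at 37.6 CPM (12.2 to 87.8; 5 UMIs) and 200.3 CPM (176 to 228; 237 UMIs), a ratio of 5.33 (2.25 to 16.6). The 2 libraries' intervals did not overlap, narrowly for Tcf7 and widely for Lef1. Klf2 was at 37.6 CPM (12.2 to 87.8; 5 UMIs) and 180.0 CPM (157 to 206; 213 UMIs), a ratio of 4.79 (2.02 to 14.9). These 3 were the members past 2-fold among the 9 compared, all higher, where 3.13% of all 3229 genes compared were higher. Lef1 and Klf2 were under 50 CPM in control and entered through their knockout level, so this count is not independent of their ratios. The median ratio was 1.27 over the 9 members and 0.963 over all genes compared. The control side rests on few molecules: 4 of the 9 Tcf7 UMIs came from 1 cell, and with a stricter filter on cells, which left 30 control cells, the Tcf7 ratio was 1.83. The Lef1 ratio was 8.52 with called doublets kept and the Klf2 ratio 8.78 as a mean over cells.

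The other 6 compared members of these cells were within 2-fold. Tox was at 624 CPM in control (497 to 774) and 843 CPM in knockout (792 to 897), a ratio of 1.35 (1.08 to 1.71). Id2 was at 775 CPM (632 to 940) and 568 CPM (526 to 613), a ratio of 0.733 (0.595 to 0.911). For both the interval of the ratio lay to 1 side of equality. Bach2 was at 188 and 239 CPM (ratio 1.27, 0.844 to 1.999), and 13 of its 25 control UMIs came from 1 cell. Satb1 was at 263 and 179 CPM (ratio 0.681, 0.474 to 1.003), Tbx21 at 188 and 123 CPM (ratio 0.656, 0.427 to 1.05), and Eomes at 75.2 and 39.7 CPM (ratio 0.528, 0.263 to 1.17). Counting error alone covers equality for these 4. Id3, the partner of stem-like states, had 0 UMIs in control, where the floor of 3 counts is 22.6 CPM, and 40 UMIs or 33.8 CPM in knockout, at least 1.50-fold higher when set against that floor. The exact lower limit of the ratio itself was 1.16. Of those 40 UMIs, 13 came from 1 cell.

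The cells differed in depth and in makeup between libraries. Their median was 2523.5 UMIs in control and 3336 in knockout. Thinned to 1000 UMIs each, Tcf7 was detected in 2.22% of 45 control cells (0.0563 to 11.8) and in 10.3% of 312 knockout cells (7.12 to 14.2), against 10.9% and 24.3% before thinning. Lef1 was detected in 6.67% and 11.2% of thinned cells (8.70% and 23.0% unthinned), and Klf2 in 0% and 11.5% (6.52% and 28.4% unthinned). In monocyte/macrophage-like cells, with medians of 2873 and 3981 UMIs, thinned shares were 0% for Tcf7 and Lef1 in both libraries. Klf2 is also made outside lymphocytes, with 8.91% and 7.95% of thinned monocyte/macrophage-like cells, so its share in T cells has no empty background to be read against. Cluster 14, led by Cd8b1, Cd8a and Cxcr6, held 56.5% of the control cells and 45.7% of the knockout cells of this gate, and cluster 15, led by Themis, Bcl11b and Trbc2, held 32.6% and 48.3%. Cells with an Mki67 or Top2a UMI made up 23.9% and 17.98%. B cell markers were at 7.52 CPM in control (1 of 9 detected, Ms4a1 and Cd79a at 0) and 7.61 CPM in knockout (4 of 9, Cd79a and Pax5 at 0). NK markers were at 226 CPM (3 of 8) and 165 CPM (6 of 8), with Ncr1 at 0 in both. Acinar markers, the digestive enzyme genes of the pancreas, were at 0 CPM (0 of 5) and 81.1 CPM (5 of 5). Of 7 early activation and dissociation genes compared, which can be induced during tissue digestion, 1 was past 2-fold higher, beside 3.13% of all genes. Their median ratio was 1.22. The median mitochondrial share of UMIs was 2.18% in control and 1.57% in knockout cells. The part that depth, cluster makeup, cycling and these signs of quality have in the member ratios was not tested beyond the values given here.

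**Figure D1:**
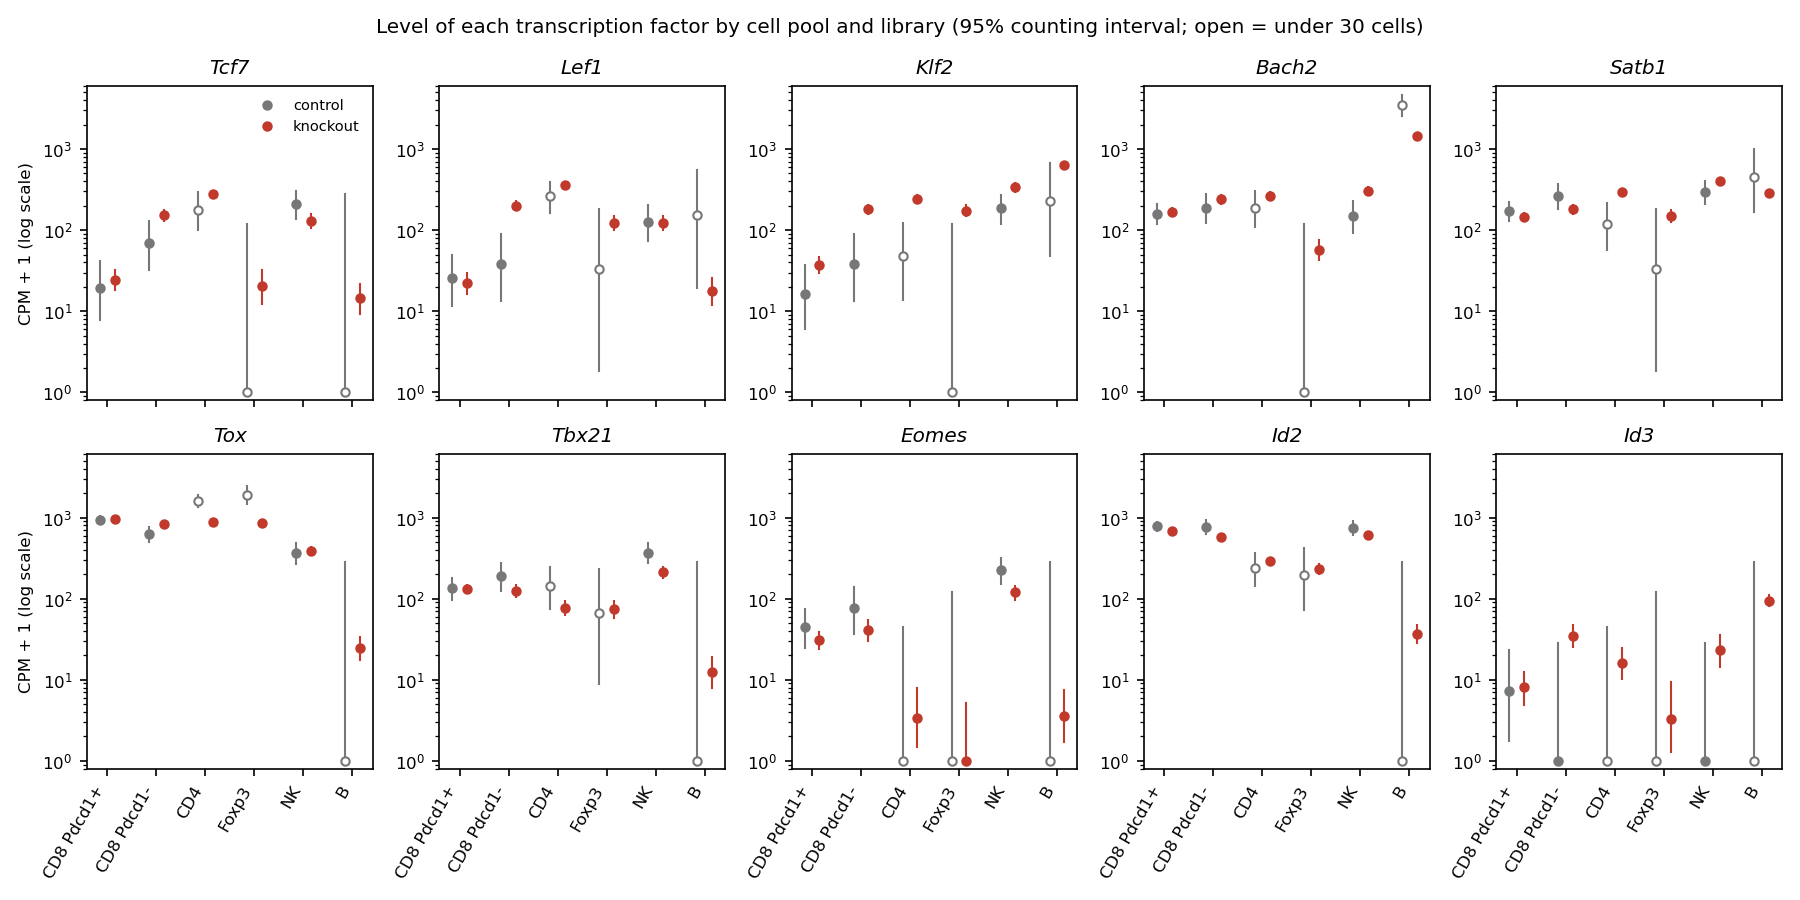
Level of each of the 10 genes (CPM + 1 on a log axis, with 95% Poisson intervals) in 4 T cell gates, NK-like and B-like cells of the control (grey) and knockout (red) libraries, with open points for pools under 30 cells. In CD8 T cells without Pdcd1, Tcf7, Lef1 and Klf2 stand at 67.7, 37.6 and 37.6 CPM in control and at 151.3, 200.3 and 180.0 CPM in knockout.

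Within cluster 15 alone, CD8 T cells without Pdcd1 (15 control and 153 knockout cells) had Tcf7 at 106 and 292 CPM, a ratio of 2.77 (1.06 to 10.3). Lef1 was at 106 and 408 CPM there (ratio 3.87, 1.49 to 14.3), and Klf2 at 106 and 339 CPM (ratio 3.21, 1.23 to 11.9). Each of these control values is 4 UMIs. Bach2 was at 52.8 and 354 CPM (2 control UMIs; ratio 6.70, 1.83 to 55.7), and Eomes was lower in knockout, at 185 and 48.7 CPM (ratio 0.263, 0.111 to 0.719). Within cluster 14 (26 and 145 cells) Klf2 was at 12.4 and 46.3 CPM (1 control UMI; ratio 3.72, 0.607 to 153.0) and Lef1 at 12.4 and 23.2 CPM (1 control UMI; ratio 1.86, 0.275 to 79.5), both higher as in cluster 15 but with intervals that covered equality. Tcf7 and Bach2 went the other way there. Tcf7 had 4 control UMIs (49.8 CPM) and 0 in the knockout cells, and Bach2 was at 262 and 83.0 CPM (ratio 0.317, 0.184 to 0.563). Satb1 was at 249 and 92.7 CPM (ratio 0.372, 0.217 to 0.662), and Tox was higher, at 722 and 1060 CPM (ratio 1.47, 1.12 to 1.958). The higher level of Tcf7 in the knockout library was thus measured in cluster 15 and not in cluster 14, and the difference between the clusters was not tested. Bach2 was within 2-fold over the whole gate and past it in opposite directions in its 2 main clusters. Both directions rest on few control cells. Most of the 21 control Bach2 UMIs of cluster 14 came from 1 cell, and cluster 15 had 2 control UMIs.

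In CD8 T cells with Pdcd1, none of the 5 members compared was past 2-fold between genotypes, where 1.35% of all 3197 genes compared were, and the members' median ratio was 0.974 beside 0.983 for all genes. Tox, the exhaustion regulator, was at 933 CPM in control (831 to 1045) and 962 CPM in knockout (921 to 1005), a ratio of 1.03 (0.913 to 1.17). Id2 was at 784 and 676 CPM (ratio 0.862, 0.754 to 0.990), Bach2 at 158 and 166 CPM (ratio 1.05, 0.783 to 1.44), Satb1 at 171 and 144 CPM (ratio 0.844, 0.632 to 1.15) and Tbx21 at 133 and 130 CPM (ratio 0.974, 0.705 to 1.38). Tcf7 was at 18.6 CPM (6 UMIs) and 23.4 CPM (50 UMIs), and Lef1 at 24.8 CPM (8 UMIs) and 21.1 CPM (45 UMIs). Both were below the minimum for comparison, as were Eomes at 43.4 and 30.0 CPM and Id3 at 6.20 and 7.03 CPM. Klf2 was at 15.5 CPM (5.03 to 36.2; 5 UMIs) and 36.6 CPM (28.9 to 45.6; 78 UMIs). Its ratio of 2.36 (0.969 to 7.47) was counted only with the minimum lowered to a mean of 20 CPM. Cluster 14 held 80.9% of the control and 70.7% of the knockout cells of this gate.

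In the knockout library, CD8 T cells with Pdcd1 had less Tcf7, Lef1 and Klf2 than CD8 T cells without it, and the other 5 members compared were within 2-fold. Tcf7 went from 151.3 CPM without Pdcd1 to 23.4 CPM with it, a ratio of 0.155 (0.111 to 0.213). Lef1 went from 200.3 to 21.1 CPM (ratio 0.105, 0.0748 to 0.145) and Klf2 from 180.0 to 36.6 CPM (ratio 0.203, 0.155 to 0.265). These were 3 of 8 members compared, where 0.822% of genes were lower. Each of them was under 50 CPM with Pdcd1 and entered the comparison through its level without Pdcd1. Tox was slightly higher with Pdcd1 (ratio 1.14, 1.06 to 1.23), as was Id2 (1.19, 1.09 to 1.31), and Bach2 was lower (0.696, 0.594 to 0.816), as was Satb1 (0.803, 0.672 to 0.961). Tbx21 had a ratio of 1.05 (0.858 to 1.30). Id3 was at 33.8 CPM without and 7.03 CPM with Pdcd1, under the minimum for comparison (ratio 0.208, 0.107 to 0.385). In the control library none of 6 members compared was past 2-fold, beside 10.6% of all genes in either direction. That count leaves out Tcf7, Lef1 and Klf2, which were under the minimum there, so it cannot show whether the knockout pattern is absent in control. Tcf7 was at 67.7 CPM without and 18.6 CPM with Pdcd1 (ratio 0.275, 0.0805 to 0.864). Lef1 had a ratio of 0.659 (0.190 to 2.56) and Klf2 of 0.412 (0.0949 to 1.79). Tox had a ratio of 1.50 (1.17 to 1.93). Cells with a Pdcd1 UMI were also deeper, at 4755.5 against 3336 UMIs in knockout and 3955 against 2523.5 in control, and the part of depth in these ratios was not tested.

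In CD4 T cells, Klf2 and Satb1 were higher in the knockout library, and Tox was lower without passing 2-fold. Klf2 was at 47.1 CPM in control (12.8 to 121; 4 UMIs in 2 of 22 cells) and 242 CPM in knockout (215 to 271; 302 UMIs in 117 of 313 cells), a ratio of 5.13 (1.98 to 19.0). Satb1 was at 118 CPM (56.5 to 217; 10 UMIs) and 291 CPM (262 to 323; 364 UMIs), a ratio of 2.47 (1.33 to 5.20). These were 2 of 8 members compared, where 4.65% of all 3417 genes were higher, and the members' median ratio was 1.39 beside 0.937. Klf2 was under 50 CPM in control and entered the comparison through its knockout level. Tox was at 1590 CPM (1334 to 1883) and 884 CPM (833 to 938), a ratio of 0.556 (0.465 to 0.670). Tox was detected in 19 of 22 control cells and 204 of 313 knockout cells. Tcf7 was at 177 and 275 CPM (ratio 1.56, 0.931 to 2.81), Lef1 at 259 and 355 CPM (ratio 1.37, 0.892 to 2.21) and Bach2 at 189 and 267 CPM (ratio 1.41, 0.858 to 2.50). Tbx21 was at 141 and 76.0 CPM (ratio 0.538, 0.294 to 1.08) and Id2 at 236 and 289 CPM (ratio 1.23, 0.782 to 2.03). Equality lay inside the interval for these 5. Eomes had 0 and 3 UMIs and Id3 0 and 19 UMIs, with a control floor of 35.3 CPM, above both knockout levels.

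Cluster 11, led by Themis, Tnfsf8 and Tox, held 77.3% of control CD4 T cells and 29.4% of knockout ones, and cluster 15 held 9.09% and 44.4%. Of the 4 control Klf2 UMIs, 3 came from 1 cell. The Klf2 ratio ran from 2.12 as a mean over cells to 19.8 with only cells carrying a Cd3 UMI kept. With cycling cells left out (31.8% of control and 22.4% of knockout cells), the Satb1 ratio was 1.99. Cell cycle transcripts went the other way from the share of cycling cells: 2 of 3 cell cycle genes compared were higher in knockout, with Mki67 at 35.3 CPM (3 UMIs) and 112 CPM, and their median ratio was 3.17. B cell markers were at 0 CPM in control and 11.2 CPM in knockout (5 of 9 detected, Ms4a1 and Pax5 at 0). Markers of ILC2, innate lymphoid cells, were at 294.5 CPM in control (2 of 6 detected, Il5 and Calca at 0) and 32.8 CPM in knockout (5 of 6, Il5 at 0). Of 9 early activation and dissociation genes compared, 1 was past 2-fold higher, beside 4.65% of all genes, and their median ratio was 1.45. The part of these in the CD4 ratios was not tested.

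When the 5 T cell gates were given the same weights in both libraries, the mean of the libraries' shares of UMIs, Klf2 was the only one of the 8 members compared to pass 2-fold, at 29.7 CPM in control and 170.3 CPM in knockout, a ratio of 5.73 (3.62 to 9.07, approximate). Of all genes compared, 0.331% were higher. Klf2 was under 50 CPM in control here too and entered the comparison through its knockout level. Lef1 was at 85.8 and 169 CPM (ratio 1.97, 1.48 to 2.62) and Tcf7 at 73.2 and 125.7 CPM (ratio 1.72, 1.27 to 2.33). Bach2 had a ratio of 1.40 (1.15 to 1.72) and Satb1 of 1.199 (0.989 to 1.46). Tox (0.839, 0.772 to 0.912), Id2 (0.816, 0.737 to 0.904) and Tbx21 (0.762, 0.613 to 0.946) were lower, and those too low to be compared were Eomes, with a ratio of 0.489 (0.329 to 0.728), and Id3, at 2.49 and 14.9 CPM with a ratio of 5.998 (1.48 to 24.3). The gates in this mean are not alike in the 2 libraries. Foxp3 T cells, with 8.80% of the weight, are 7 cells in control. Other T cells, with 16.6% of the weight, lacked a Cd3 UMI in 44.7% of control and 13.3% of knockout cells. Mast cell markers were at 370 CPM in control other T cells (4 of 4 detected) and 1.52 CPM in knockout ones (1 of 4, Mcpt4 and Tpsb2 at 0), ILC2 markers at 425 CPM (5 of 6, Il13 at 0) and 99.7 CPM (4 of 6, Il5 and Il13 at 0), and T cell markers at 3323 CPM (13 of 14) and 5451 CPM (14 of 14). The part of these cells in the ratios was not tested. Klf2 in monocyte/macrophage-like cells was at 91.5 CPM in control and 146 CPM in knockout, in fibroblast-like cells at 157 and 154 CPM, and in epithelial/tumour-like cells at 66.6 and 84.9 CPM. A higher knockout level was not particular to T cells. Klf2 was at 55.7 and 206 CPM in cDC1-like dendritic cells (24 and 231 UMIs) and at 126 and 274 CPM in pericyte/smooth muscle-like cells. Migratory dendritic-like cells had 11.7 CPM (1 UMI) and 50.9 CPM. In neutrophil-like cells Klf2 was lower in knockout, at 630 and 455 CPM.

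**Figure D2:**
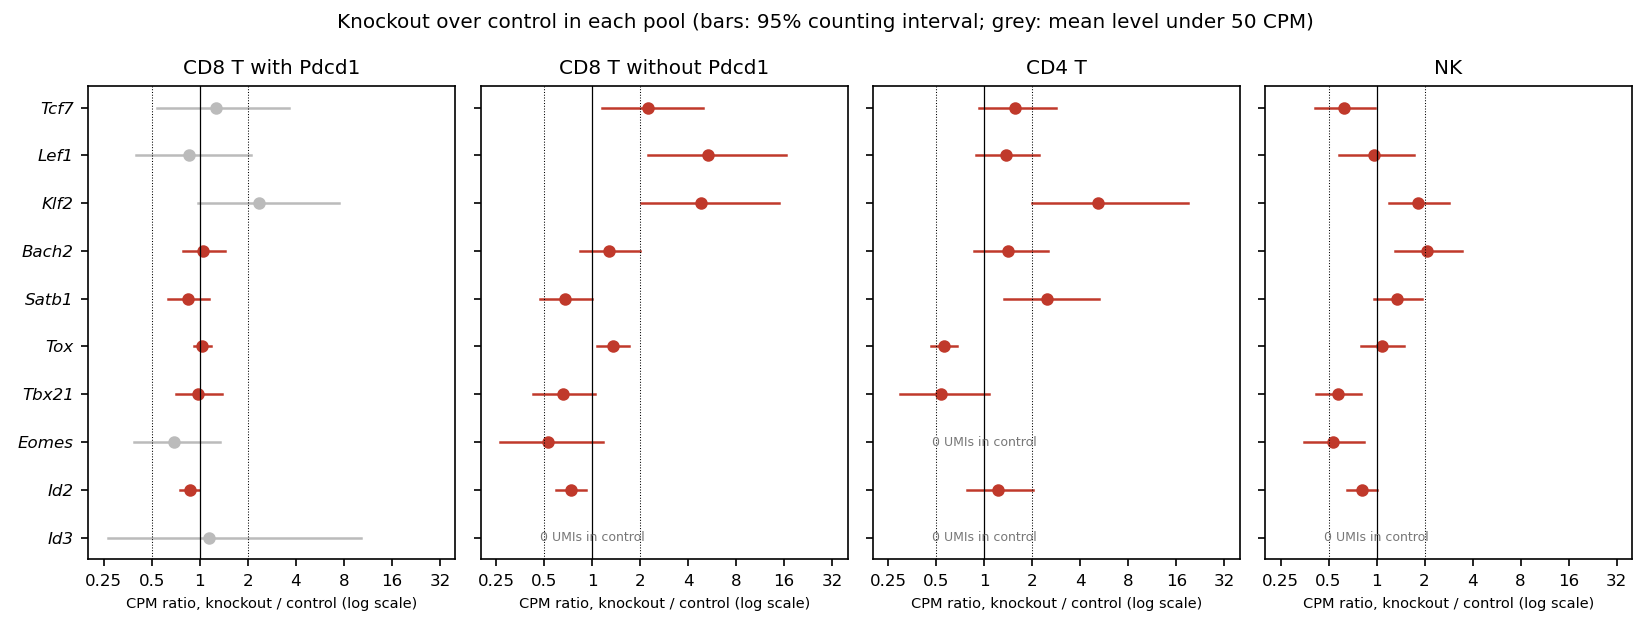
Knockout over control CPM ratio of each gene, on a log axis, in 3 T cell gates and NK-like cells, with 95% intervals for counting error and grey points for genes too low to be compared. Klf2 has a ratio above 1 in each of the 4 pools, from 1.82 in NK-like cells to 5.13 in CD4 T cells, with an interval that reaches below 1 in CD8 T cells with Pdcd1.

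In NK-like cells the T-box factors were lower and Bach2 and Klf2 higher in the knockout library. Tbx21 was at 369 CPM in control (274 to 487; 50 UMIs) and 211 CPM in knockout (181 to 244; 180 UMIs), a ratio of 0.571 (0.416 to 0.798). Eomes was at 222 CPM (150 to 316; 30 UMIs) and 118 CPM (96.4 to 144; 101 UMIs), a ratio of 0.534 (0.352 to 0.832). Neither passed 2-fold, and the 2 libraries' intervals did not overlap for either. Bach2 was at 148 CPM (90.3 to 228; 20 UMIs) and 305 CPM (269 to 344; 260 UMIs), a ratio of 2.06 (1.31 to 3.43). It was 1 of 9 members past 2-fold, where 4.51% of all 3285 genes compared were higher, a share the members' count of 1 does not stand clear of. Klf2 was at 185 and 335 CPM (ratio 1.82, 1.21 to 2.85), and Tcf7 was lower, at 207 and 129 CPM (ratio 0.623, 0.409 to 0.981). Lef1 (126 and 122 CPM), Satb1 (296 and 397 CPM), Tox (362 and 390 CPM) and Id2 (746 and 601 CPM) had ratios from 0.806 to 1.35, with intervals that covered equality. Id3 had 0 UMIs in control and 19 in knockout, at 22.3 CPM beside a control floor of 22.2 CPM.

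The NK-like pool also differed in its markers between libraries. Cells without a Cd3 UMI made up 78.9% in control and 63.0% in knockout. T cell markers were at 1204 CPM in control (11 of 14 detected, Cd4, Foxp3 and Cd5 at 0) and 1965 CPM in knockout (14 of 14). B cell markers were at 0 CPM in control (0 of 9) and 45.7 CPM in knockout (9 of 9), in a library where B-like cells held Bach2 at 1454 CPM. Without the cells carrying B cell transcripts the Bach2 ratio was 1.95. With only cells lacking a Cd3 UMI kept, and none removed for B cell transcripts, it was 3.21. With a pseudocount of 10 CPM it was 1.99. The part of T cell transcripts in the Tcf7, Tbx21 and Eomes ratios of these cells was not tested.

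Foxp3 T cells could be described in the knockout library only, since control had 7, with 0 UMIs of Tcf7, Klf2, Bach2, Eomes and Id3, 1 of Lef1 and 59 of Tox. Against knockout CD4 T cells, the 184 knockout Foxp3 T cells had Tcf7 at 19.4 CPM (11.3 to 31.1) beside 275 CPM, a ratio of 0.0706 (0.0407 to 0.115). Bach2 was at 56.0 beside 267 CPM (ratio 0.210, 0.153 to 0.284) and Lef1 at 121 beside 355 CPM (ratio 0.342, 0.274 to 0.424). These were 3 of 8 members compared, where 2.65% of genes were lower. Tcf7 was under 50 CPM in Foxp3 T cells and entered the comparison through its level in CD4 T cells. Satb1 was at 149 beside 291 CPM (ratio 0.510, 0.414 to 0.625), just inside 2-fold. Klf2 was at 174 beside 242 CPM (ratio 0.719, 0.588 to 0.877) and Id2 at 231 beside 289 CPM (ratio 0.7995, 0.670 to 0.952). Tox (857 CPM, ratio 0.969) and Tbx21 (73.2 CPM, ratio 0.963) had intervals that covered equality. Eomes was in 0 of 184 Foxp3 T cells, with a floor of 3.43 CPM. The intervals of the Tcf7 and Lef1 ratios did not overlap, so these relatives differed in how far they were below the CD4 level.

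NK-like cells of the knockout library differed from its CD8 T cells in 4 of 9 members compared. Klf2 was at 335 CPM in NK-like and 87.7 CPM in CD8 T cells (ratio 3.82, 3.23 to 4.51), Eomes at 118 and 33.5 CPM (ratio 3.54, 2.67 to 4.67) and Satb1 at 397 and 157 CPM (ratio 2.54, 2.21 to 2.92), where 5.56% of genes were higher. Eomes was under 50 CPM in CD8 T cells and entered the comparison through its level in NK-like cells. Tox was lower, at 390 and 920 CPM (ratio 0.424, 0.378 to 0.475), where 3.72% of genes were lower. Tcf7 (1.87), Tbx21 (1.65), Bach2 (1.58) and Lef1 (1.43) were higher within 2-fold, each with an interval above 1, and Id2 had a ratio of 0.943 (0.855 to 1.04).

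B-like cells of the knockout library, set against its CD4 T cells, had Bach2 at 1454 beside 267 CPM (ratio 5.46, 4.86 to 6.14), Klf2 at 639 beside 242 CPM (ratio 2.65, 2.32 to 3.02) and Id3 at 93.7 beside 15.2 CPM (ratio 6.16, 3.81 to 10.5). These 3 of 8 were higher, as were 9.12% of genes. Id3 was under 50 CPM in CD4 T cells and entered the comparison through its level in B-like cells. Tcf7 at 13.5 CPM (ratio 0.0490), Lef1 at 16.7 CPM (0.0471), Tox at 23.8 CPM (0.0269) and Id2 at 35.9 CPM (0.124) were lower, as were 11.7% of genes. Each of these lower members entered the comparison through its level in CD4 T cells. Satb1 was at 287.5 beside 291 CPM (ratio 0.987, 0.858 to 1.14). The 14 T cell markers summed to 167.5 CPM in these B-like cells. In the 8 control B-like cells Bach2 had 46 UMIs, or 3488 CPM, of which 18 came from 1 cell, and Tcf7, Tox, Tbx21, Eomes, Id2 and Id3 had 0 UMIs.

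Ordered over 7 knockout pools, the genes fell into different sequences, and 30 of 60 neighbouring pairs of levels differed beyond their counting interval. Tcf7 was highest in CD4 T cells (275 CPM) and other T cells (259 CPM), which did not differ, then CD8 T cells without Pdcd1 and NK-like cells, with the remaining 3 pools between 13.5 and 23.4 CPM. Lef1 had the same leading pair (355 and 341 CPM), with NK-like and Foxp3 T cells together at 122 and 121 CPM. Klf2 and Bach2 were highest in B-like cells, and other T cells came next at 413 and 312 CPM. Satb1, Tbx21 and Eomes were highest in NK-like cells. Tox and Id2 were highest in CD8 T cells with Pdcd1, and Tox did not differ between neighbours from CD4 (884 CPM) through Foxp3 and CD8 without Pdcd1 to other T cells (802 CPM). Id3 was highest in B-like cells and lowest in Foxp3 T cells, at 2.29 CPM. In control 7 of 30 neighbouring pairs differed, over 4 pools. Control pools hold fewer UMIs and have wider intervals, and Id3 pairs with 0 UMIs on both sides counted as not differing. The counts of the 2 libraries are therefore not comparable, and no such count was made over all genes.

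Among the 317 knockout CD8 T cells without Pdcd1, 77 had a Tcf7 UMI. They had more Lef1, Klf2, Bach2, Satb1, Id3 and Eomes and less Id2, Tbx21 and Tox than the 240 without. Lef1 was at 601.5 CPM in cells with Tcf7 and 52.1 CPM in those without (ratio 11.6, 8.31 to 16.4), Klf2 at 432 and 86.8 CPM (4.98, 3.73 to 6.69), and Bach2 at 498 and 144 CPM (3.47, 2.73 to 4.43). Satb1 had a ratio of 3.27 (2.47 to 4.33), Id3 of 7.14 (3.46 to 15.8) and Eomes of 2.19 (1.17 to 4.04). Id2 was at 135 and 728 CPM (0.185, 0.133 to 0.252), Tbx21 at 31.3 and 157 CPM (0.199, 0.0933 to 0.377) and Tox at 511 and 966 CPM (0.528, 0.444 to 0.626). Surface and effector genes were divided likewise. Slamf6, a marker used for stem-like cells, was at 232 and 31.3 CPM (7.42, 4.72 to 11.99), Gzmb was at 28.2 and 479 CPM (0.0588, 0.0267 to 0.113), and Havcr2, which encodes TIM-3, had 1 and 170 UMIs. Tcf7 and Lef1 were found together in 47 cells, 14.8% of the pool, where the product of their shares is 5.59%, and Tcf7 and Klf2 in 50 cells, 15.8% beside 6.90%. Tcf7 and Id2 were together in 26 cells, 8.20% beside 15.6%, and Tcf7 and Tox in 48, 15.1% beside 15.9%. Median depths of cells with and without Tcf7 were 3786 and 3173.5 UMIs. Of this gate's Tcf7 UMIs, 156 were in cluster 15 and 0 in cluster 14, and the part of cluster makeup in these ratios was not tested.

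In the 382 knockout CD8 T cells with Pdcd1, 28 had a Tcf7 UMI. Lef1 had a ratio of 2.91 (1.33 to 5.87), Klf2 of 2.50 (1.37 to 4.34), Bach2 of 2.65 (2.05 to 3.41) and Id3 of 4.49 (1.204 to 14.4). Slamf6 was at 159 CPM with Tcf7 and 26.6 CPM without (5.99, 3.76 to 9.42). These genes were also higher with Tcf7 in the cells without Pdcd1, at ratios farther from 1, a difference that was not tested. Id2 (0.309, 0.227 to 0.412), Tbx21 (0.478, 0.258 to 0.816), Tox (0.607, 0.504 to 0.725), Havcr2 (0.182, 0.0901 to 0.327) and Gzmb (0.303, 0.228 to 0.395) were lower with Tcf7. Pdcd1 itself had a ratio of 0.548 (0.405 to 0.727). Each cell of this gate has a Pdcd1 UMI by definition, which raises Pdcd1 CPM in shallower cells, so that ratio is not a result about Pdcd1. Satb1 (1.12) and Eomes (0.929) had intervals that covered equality. These 28 cells were deeper, with a median of 7732 against 4661.5 UMIs, and a deeper cell is more likely to show a Tcf7 UMI. Tcf7 was also uneven over clusters. Cluster 11, whose leading genes include Cd4, held 21 of this gate's Tcf7 UMIs in 36 cells. Cluster 14 held 5 in 270 cells, cluster 15 held 10 and cluster 18 held 13. Bach2 was at 558 CPM in the cluster 11 cells and 118 CPM in the cluster 14 cells. The part of cluster makeup in these ratios was not tested. Control had 3 cells with a Tcf7 UMI among those with Pdcd1 and 5 among those without it, too few to be described the same way.

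**Figure D3:**
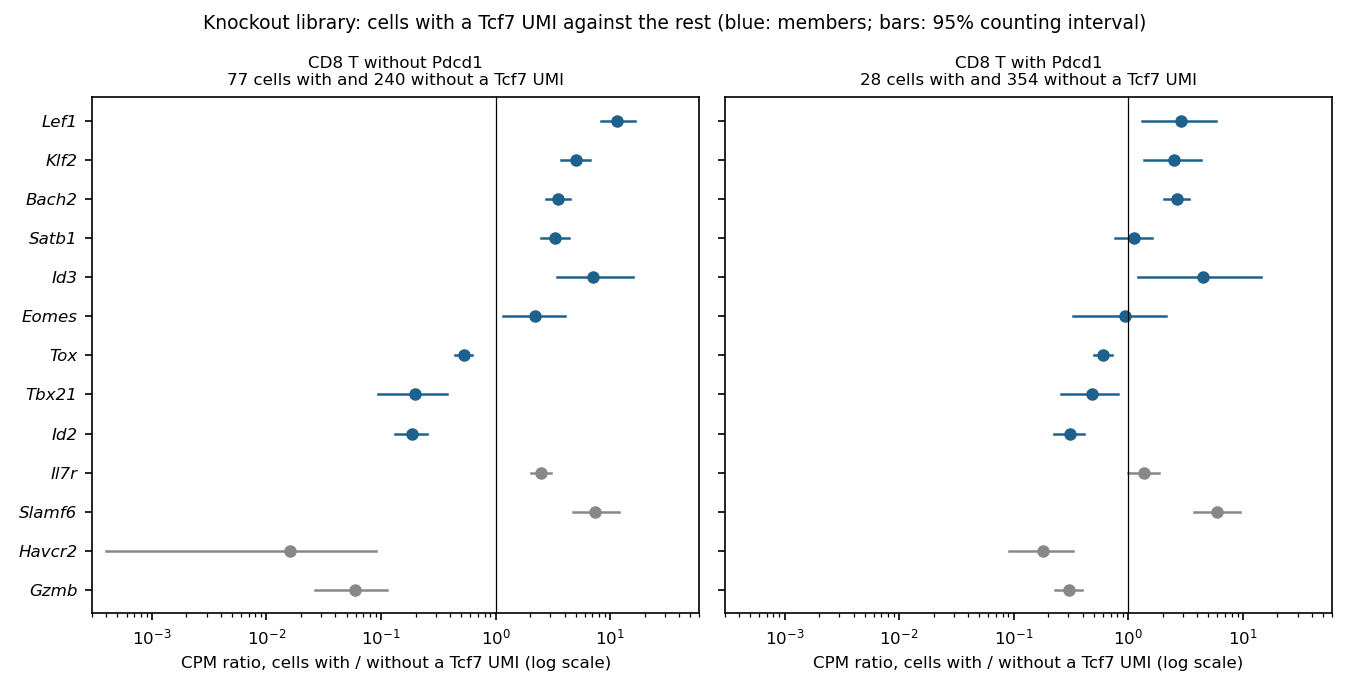
Ratio of each gene's CPM in cells with a Tcf7 UMI to that in cells without, knockout CD8 T cells with and without Pdcd1, on a log axis with 95% counting intervals. Lef1, Klf2, Bach2, Id3 and Slamf6 lie above 1 and Tox, Tbx21, Id2, Havcr2 and Gzmb below 1 in both pools.

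By T-like cluster, Tcf7, Lef1, Klf2 and Bach2 each had their highest knockout level in cluster 15, which held 21.6% of control and 35.7% of knockout T-like cells. In control that held for Tcf7 and Klf2 only. Control Lef1 was at 192 CPM in cluster 8 and 158 CPM in cluster 11 beside 142 CPM in cluster 15, and control Bach2 was highest in cluster 11. The members were left out of the genes used for clustering, although correlated genes stayed in. In cluster 15 Tcf7 was at 208 CPM in control and 381 CPM in knockout (ratio 1.84, 1.17 to 3.07), Lef1 at 142 and 534 CPM (3.76, 2.19 to 7.09), Klf2 at 109 and 514 CPM (4.70, 2.55 to 9.84) and Bach2 at 98.4 and 434 CPM (4.42, 2.31 to 9.70). Eomes was at 153 and 29.0 CPM there (0.190, 0.103 to 0.371), and Id2 at 492 and 332 CPM (0.674, 0.497 to 0.935). Control cells of cluster 15 were shallower, with medians of 1731 and 2863 UMIs, and 29.3% of them had no Cd3 UMI against 7.45% in knockout. In cluster 14 Tcf7 was at 14.7 and 2.88 CPM (5 and 6 UMIs), Klf2 at 8.84 and 34.6 CPM (3.91, 1.29 to 19.4), and Tox at 860 and 988 CPM (1.15, 1.02 to 1.30). In cluster 8, led by Tnfrsf4, Ctla4 and Ikzf2, Tox was at 1548 and 886 CPM (0.572, 0.464 to 0.712) and Klf2 at 47.9 and 192 CPM (4.02, 1.36 to 19.6). In cluster 11 Tox was at 1483 and 1402 CPM (0.945, 0.804 to 1.12), Tcf7 at 158 and 175 CPM, and Bach2 at 360 and 305 CPM. Klf2 was at a higher level in knockout in each of the 5 clusters, with an interval above 1 in clusters 8, 14 and 15 and not in clusters 11 and 18.

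**Figure D4:**
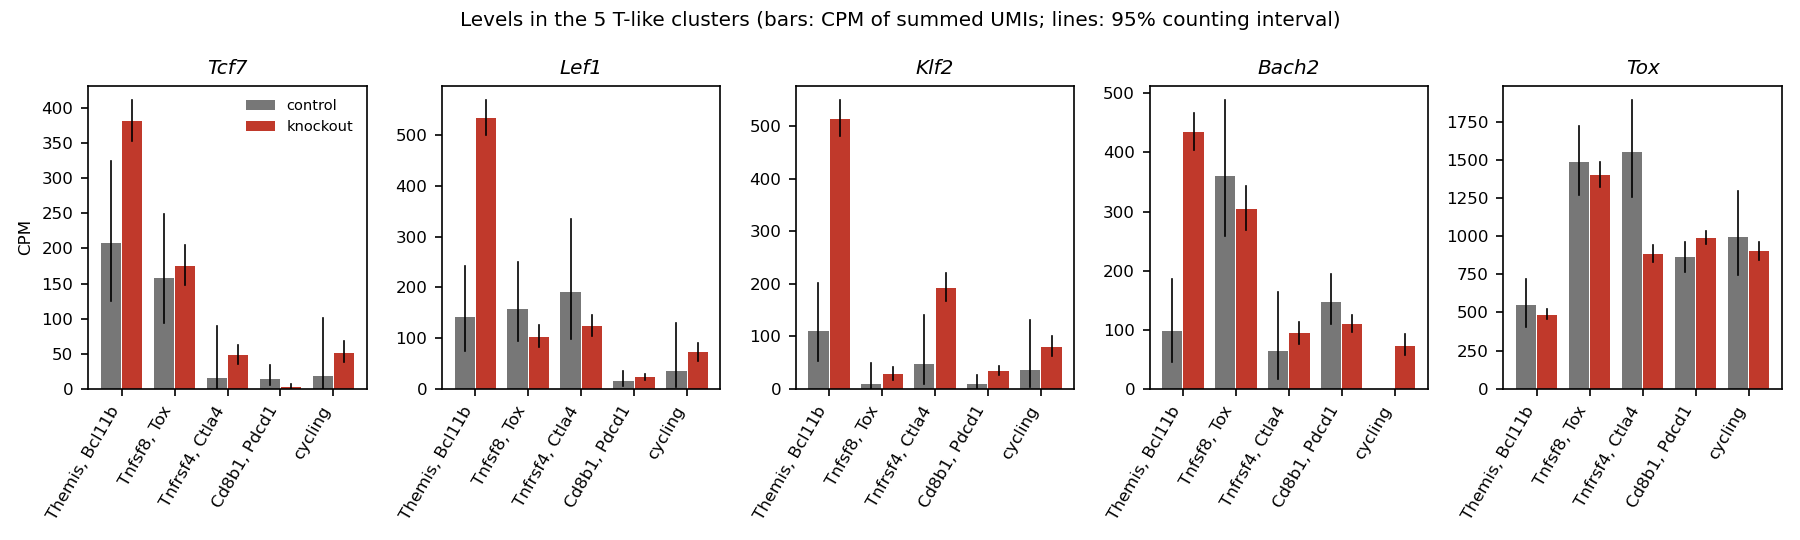
Level of Tcf7, Lef1, Klf2, Bach2 and Tox (bars in CPM, lines for 95% intervals) in the 5 T-like clusters, named by leading genes, of the control (grey) and knockout (red) libraries. Cluster 15 (Themis, Bcl11b) holds Tcf7 at 208 and 381 CPM and cluster 14 (Cd8b1, Pdcd1) at 14.7 and 2.88 CPM.

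Related gene lists were counted beside the members. In CD8 T cells without Pdcd1, the naive and trafficking genes had 0 of 3 compared past 2-fold and a median ratio of 1.75, with the interleukin-7 receptor Il7r at 188 and 333 CPM (1.77, 1.18 to 2.77). Of 8 lineage and quiescence factors 1 was higher, Foxp1 at 203 and 440 CPM (2.17, 1.47 to 3.32), and the median was 1.40. Of 8 exhaustion and activation factors 0 passed, with a median of 0.673, and of 5 checkpoint receptors 1 was lower, Cd244a at 82.8 and 36.3 CPM (0.439, 0.223 to 0.944), with a median of 0.735. Of 10 cytotoxic effectors 2 were lower, Gzma at 406 and 49.9 CPM (0.123, 0.0834 to 0.181) and Gzmb at 790 and 358 CPM (0.453, 0.365 to 0.566), with a median of 0.808. Tcf12, the E protein gene compared and a target of ID proteins, was at 128 and 268 CPM (2.10, 1.29 to 3.64). Over all genes the median was 0.963, and 3.13% were higher and 3.78% lower.

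In CD4 T cells 3 of 4 naive and trafficking genes compared were higher, including Il7r at 130 and 399 CPM (3.08, 1.71 to 6.21), and Itgb7 at 11.8 and 125 CPM from 1 control UMI. Of 11 exhaustion and activation factors 2 were lower, among them the Tox relative Tox2 at 141 and 7.20 CPM (0.0510, 0.0190 to 0.132), and 5 of 6 checkpoint receptors were lower, such as Havcr2 at 141 and 41.6 CPM (0.294, 0.155 to 0.606) and Tigit at 141 and 43.2 CPM (0.306, 0.162 to 0.628). The medians were 2.85, 0.727 and 0.424 for these lists and 0.937 for all genes, of which 4.65% were higher and 7.78% lower past 2-fold. In CD8 T cells with Pdcd1, 0 of 7 lineage factors, 0 of 8 exhaustion factors and 0 of 8 checkpoint receptors passed 2-fold, and 3 of 9 cytotoxic effectors were lower, beside 0.688% of all genes, with the chemokine Ccl3 at 5143 and 856 CPM (0.167, 0.156 to 0.178). In NK-like cells 2 of 9 cytotoxic effectors were higher, the chemokines Ccl4 at 51.7 and 305 CPM (5.89, 2.82 to 14.8) and Ccl5 at 1389 and 5178 CPM (3.73, 3.22 to 4.34). There 3 of 9 early activation and dissociation genes were also higher, and 4.51% of all genes compared were higher. Of the members' family relatives only Klf6 and Tox4 were high enough to be compared, and 0 passed in any of these comparisons.

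Across 11 pools with at least 30 cells, which share the 2 libraries and their depths, the genes most like each member by Pearson's r of log2(CPM + 10), among 3357 genes, were as follows. For Tcf7 they were Sidt1 (0.881) and Esyt2 (0.866), for Lef1 Klf6 (0.913) and Rnf138 (0.896), and for Klf2 they include Lncpint (0.951). For Bach2 they were Zcchc7 (0.920) and Gch1 (0.907), for Satb1 Cirbp (0.805) and Adgre5 (0.798), and for Tox Fyb (0.979) and S100a4 (0.974). For Tbx21 they were Ctla2a (0.983) and Cracr2a (0.959), for Eomes Styk1 (0.953) and Padi2 (0.952), for Id2 Rgs3 (0.982) and Cd226 (0.972), and for Id3 Prkce (0.908) and Igkc (0.881). Among the members themselves the closest were Tbx21 with Id2 (0.926), Bach2 with Id3 (0.861), Tcf7 with Lef1 (0.852) and Tbx21 with Eomes (0.845), and Bach2 and Tox ran opposite (-0.802). The knockout B-like pool is 1 of the 11. It had the highest Bach2 (1454 CPM, next pool 312) and Id3 (93.7, next 33.8) and the lowest Tox (23.8, next 362). The 2 values of r for Bach2 may lean on it, and r without it was not computed.

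The members differ in how far the T cells account for their transcripts in the whole tumour. T-like cells held 67.8% of knockout Tcf7 UMIs and 6.27% of control ones, 84.1% and 40.7% of Lef1, 85.4% and 59.1% of Tox, and 69.8% and 56.4% of Tbx21. For Klf2 the shares were 9.31% and 0.141%, for Id2 16.7% and 1.80%, and for Id3 1.21% and 0.0142%. Id2 was at 447 CPM in control and 575 CPM in knockout monocyte/macrophage-like cells, and Id3 at 235 and 169 CPM in fibroblast-like cells. In both libraries most UMIs of Klf2, Id2 and Id3 therefore lay outside T-like cells. So did those of Bach2, with 26.7% of knockout and 6.32% of control UMIs in T-like cells. In control this also held for Tcf7, Lef1, Satb1 (39.4% in T-like cells) and Eomes (41.3%). T-like cells were 1618 of 10467 knockout cells and 190 of 11516 control cells, and the part of cell number in these shares was not tested.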

How the data were processed

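The authors deposited 1 count matrix of raw UMI counts per gene and barcode for each library. The submitters' processing notes name mm10 and Cell Ranger 3.1.3, and the file headers name Cell Ranger 8.0.0. The reason for the difference is not given in the sources used here. Barcodes under 500 genes or over 15% mitochondrial UMIs were dropped, and Scrublet (expected rate 0.08) called 148 control and 341 knockout doublets (1.27% and 3.16%), which were removed. Cells were clustered with scanpy 1.11.5 on 2000 variable genes without the members and the gating genes (30 components, 15 neighbours, Leiden resolution 1, seed 0), first all cells and then leukocytes, and clusters were named from marker lists. Undetected doublets may remain.

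UMIs were summed per library and pool and given as CPM with exact Poisson intervals, and ratios with exact conditional intervals, all at 95%. They cover counting error only. All 32285 genes were processed alike, and the text names the 10 members, from each list the 2 highest and 2 lowest ratios of a comparison, a set of state genes beside Tcf7-detected cells, and the 2 genes most like each member. Some results that these rules name are not reported here. A count of 0 was set against a floor of 3 counts. The interval code was tested on simulated data. The 10 members, the gates and the gene lists were chosen with earlier results of these data known, so none is independent evidence. The closing section gives the alternatives. Tox has no promoter sequence here, and protein sequences were not used here.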

Additional observations from a re-analysis of the deposited data

Results flagged for a closer look

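Tcf7 had a knockout over control CPM ratio of 2.24 in CD8 T cells without Pdcd1 and of 0.623 in NK-like cells. The intervals, which cover counting error only, lay on opposite sides of 1, and this brought the pair here. The difference itself was not tested, since each genotype has 1 library. NK-like control cells held 28 Tcf7 UMIs and CD8 control cells without Pdcd1 held 9.

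Tox had a ratio of 1.35 in CD8 T cells without Pdcd1 and of 0.556 in CD4 T cells, again with intervals on opposite sides of 1, and this difference was not tested. Cluster 11 held 77.3% of control CD4 T cells and 29.4% of knockout ones, cluster 15 held 9.09% and 44.4%, and cluster 8 held 13.6% and 18.5%. Over all T-like cells of each cluster, the Tox ratio was 0.945 (0.804 to 1.12) in cluster 11. It was 0.890 (0.669 to 1.21) in cluster 15 and 0.572 (0.464 to 0.712) in cluster 8. The part of cluster makeup in the CD4 ratio was not tested.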

How the results depend on the processing

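No paired analysis was possible because each genotype had 1 library. Of 780 ratios of single members under 10 alternatives, 754 stayed inside their counting interval, 26 moved further and 0 changed direction. The minimum mean of 20 CPM cannot alter a ratio, so 78 of the 754 were fixed in advance. A change of direction was counted only for ratios past 2-fold in the main analysis. The counts of members past 2-fold in CD8 T cells without Pdcd1 and in the 4 comparisons between knockout pools stayed within 1.5 times their value. In CD8 T cells with Pdcd1 the count went from 0 to 1 with a minimum mean of 20 CPM (Klf2). In CD4 T cells it went from 2 to 1 with cycling cells left out. In NK-like cells it went from 1 to 2 as a mean over cells and with the stricter cell filter, and to 0 with a pseudocount of 10 CPM or without cells carrying B cell transcripts, an alternative chosen after seeing the data. Between control CD8 T cells with and without Pdcd1 it went from 0 to 1 as a mean over cells (Eomes), with the stricter filter and without ribosomal and mitochondrial genes (Tcf7), and to 2 with cycling cells left out (Tbx21 and Eomes) or a minimum mean of 20 CPM (Tcf7 and Klf2). In T cells with equal weights it went from 1 to 2 with the stricter filter, with doublets kept, with cycling cells left out and without ribosomal and mitochondrial genes (Lef1 beside Klf2), and with a minimum mean of 20 CPM (Eomes beside Klf2). The cause of these moves was not tested, except that the lower minimum compares more genes. Shares of cells with a UMI depend on thinning: 126 of 240 moved. Control pools of 22 to 68 cells limit the genotype ratios of the 4 gates set side by side, and within clusters control had 10 to 85 T-like cells (15 CD8 T cells without Pdcd1 in cluster 15).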
